A study of Mus musculus with 6 samples.

Results

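The liver sets how much iron enters the blood, and 10 genes of iron handling and hepcidin control were compared between WT and TRIM24 C52/55A knockin mice kept on a high-fat diet (HFD). They are the hepcidin genes *Hamp* and *Hamp2*, the transferrin receptors *Tfrc* and *Tfr2*, the exporter *Slc40a1* (ferroportin), the carrier transferrin (*Tf* in the list, given by its mouse symbol *Trf* in the data), the ferritin heavy chain *Fth1*, the ligand *Bmp6* and its target genes *Id1* and *Smad7*. The genes were taken by name, as a list drawn up with earlier results of these data known, and were 10 of 21528 genes with a value in any library. All 10 were among the 12225 genes that passed the filter of a mean of at least 0.5 FPKM (fragments scaled to transcript length and to all mapped fragments of a library, the unit of the deposited values).

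Total RNA of whole liver was sequenced from 3 WT mice and 3 mice homozygous for the knockin, with 1 library per mouse. In the knockin, cysteines 52 and 55 of the endogenous TRIM24 are replaced by alanine in every tissue, which inactivates its E3 ubiquitin ligase, and the WT mice were littermates from matings of heterozygotes. Both groups are labelled C57BL/6, the knockin having been made on C57Bl/6J, were 5 months old and had eaten a diet with 60% of its energy from fat for 3 months, and no group on chow was part of these data. Sex is not given in the labels, and the paper names male mice for its liver measurements on the HFD. Serum iron, liver iron and the hepcidin peptide were not measured in the data used here.

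Hepcidin is a peptide hormone made by hepatocytes that binds ferroportin, the only known iron exporter of mammalian cells, and causes its degradation, so that less iron leaves gut cells, macrophages and hepatocytes. Transcription of hepcidin is raised by iron through BMP6, which is made by the liver sinusoidal endothelium, its receptors on hepatocytes and the SMAD proteins, and by inflammation through IL-6 and STAT3. Inside cells, the iron regulatory proteins bind a hairpin, the iron-responsive element, when iron is low. In the 5′ UTR of ferritin or ferroportin mRNA this blocks translation, and in the 3′ UTR of transferrin receptor mRNA it protects the transcript from decay.

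*Hamp* and *Hamp2* lie next to each other on the minus strand of chromosome 7 (GENCODE M21 on GRCm38, 30942368 to 30944032 and 30922372 to 30924681). Their promoters are printed because *Hamp* passed the test between the genotypes and *Hamp2*, its neighbouring copy, had knockin libraries on the other side of WT without passing it. The sequences are the 250 bases upstream of the RefSeq start on GRCm38.p6, 5′ to 3′ on the minus strand, at chr7:30944030-30944279 for *Hamp* and chr7:30924182-30924431 for *Hamp2*. RefSeq and GENCODE place the start of *Hamp2* differently, so its window lies inside the GENCODE interval of the gene. Capitals mark GGCGCC, the letters of the BMP-responsive element of hepcidin promoters, and TTCNNNGAA, the letters bound by STAT factors.
Hamp promoter: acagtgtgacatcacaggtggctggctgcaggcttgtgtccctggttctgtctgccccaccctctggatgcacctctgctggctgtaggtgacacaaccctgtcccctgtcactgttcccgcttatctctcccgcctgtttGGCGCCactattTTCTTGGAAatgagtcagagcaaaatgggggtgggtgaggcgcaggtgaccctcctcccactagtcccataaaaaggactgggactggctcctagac
Hamp2 promoter: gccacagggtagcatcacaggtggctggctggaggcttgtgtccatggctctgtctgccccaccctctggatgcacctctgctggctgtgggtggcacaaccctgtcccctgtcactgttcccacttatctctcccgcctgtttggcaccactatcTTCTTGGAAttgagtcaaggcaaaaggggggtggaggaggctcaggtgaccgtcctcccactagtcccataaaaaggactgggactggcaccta
Both windows held the STAT letters TTCTTGGAA. GGCGCC began at base 142 of the *Hamp* window, 109 bases before the start, and was not found in the *Hamp2* window. At the aligned place *Hamp2* had GGCACC, which is the substitution G145A, counted from 1 at the 5′ end of the printed *Hamp* window. The windows were 89.7% identical over 253 aligned columns, with 20 substitutions and 6 gap columns. Both motifs read the same on either strand and did not overlap each other. GGCGCC was found in 9.59% and TTCNNNGAA in 7.02% of all 32851 RefSeq promoter windows of that length. Among the other listed genes with an entry (*Tfrc*, *Tfr2*, *Fth1* and *Bmp6*), GGCGCC was found in 1 of the 2 windows of *Tfrc* alone and TTCNNNGAA in none. *Slc40a1*, *Trf*, *Id1* and *Smad7* were without an entry. A match of letters is a description and not a measured binding site.

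The end of the coding sequence, which holds the mature peptide, is printed to show how far the hepcidin transcripts can be told apart by sequencing. These are the last 75 coding bases before the stop codon, in exon 3 of each gene, at chr7:30942480-30942554 for *Hamp* and chr7:30922511-30922585 for *Hamp2* (GRCm38, minus strand), and capitals mark the bases that differ.
Hamp: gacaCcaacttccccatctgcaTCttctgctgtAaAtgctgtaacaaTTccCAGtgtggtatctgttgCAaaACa
Hamp2: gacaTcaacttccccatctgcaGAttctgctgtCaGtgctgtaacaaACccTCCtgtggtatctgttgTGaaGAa
They differed at 14 bases in 9 of 25 codons. Over the whole transcripts the identity was 92.4%, and 128 stretches of 31 bases were shared, which is 33.7% of those in *Hamp* and 32.8% of those in *Hamp2*. Reads from such stretches cannot be assigned to one gene by sequence alone, and the split between *Hamp* and *Hamp2* is therefore less certain than their sum. The interval that the deposited tables give for both genes, 56.5 kb long, is one shared by 7 listed genes, so it does not tell them apart either.

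In the abundance order of the 10 genes, compared per length in FPKM over the 6 libraries, *Trf* stood first with a mean of 6097 FPKM and was rank 19 of all genes. It was followed by *Fth1* (1607 FPKM), *Hamp* (1084 FPKM), *Tfr2* (128 FPKM), *Hamp2* (47.6 FPKM) and *Slc40a1* (43.8 FPKM). *Tfrc* (5.64 FPKM), *Id1* (5.51 FPKM), *Smad7* (2.72 FPKM) and *Bmp6* (1.53 FPKM) were low. Of neighbours in this order, the libraries of *Fth1* and *Hamp*, of *Hamp2* and *Slc40a1*, and of *Tfrc* and *Id1* overlapped, and the other neighbours did not. The order of 2 of these pairs turned with genotype, since in the knockin the mean of *Hamp* (1327 FPKM) was above that of *Fth1* (1253 FPKM) and the mean of *Slc40a1* (41.6 FPKM) above that of *Hamp2* (20.2 FPKM). *Fth1* and *Hamp* stood at ranks 73 and 85, so that carrier, store and hormone were all abundant liver transcripts.

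**Figure D1:**
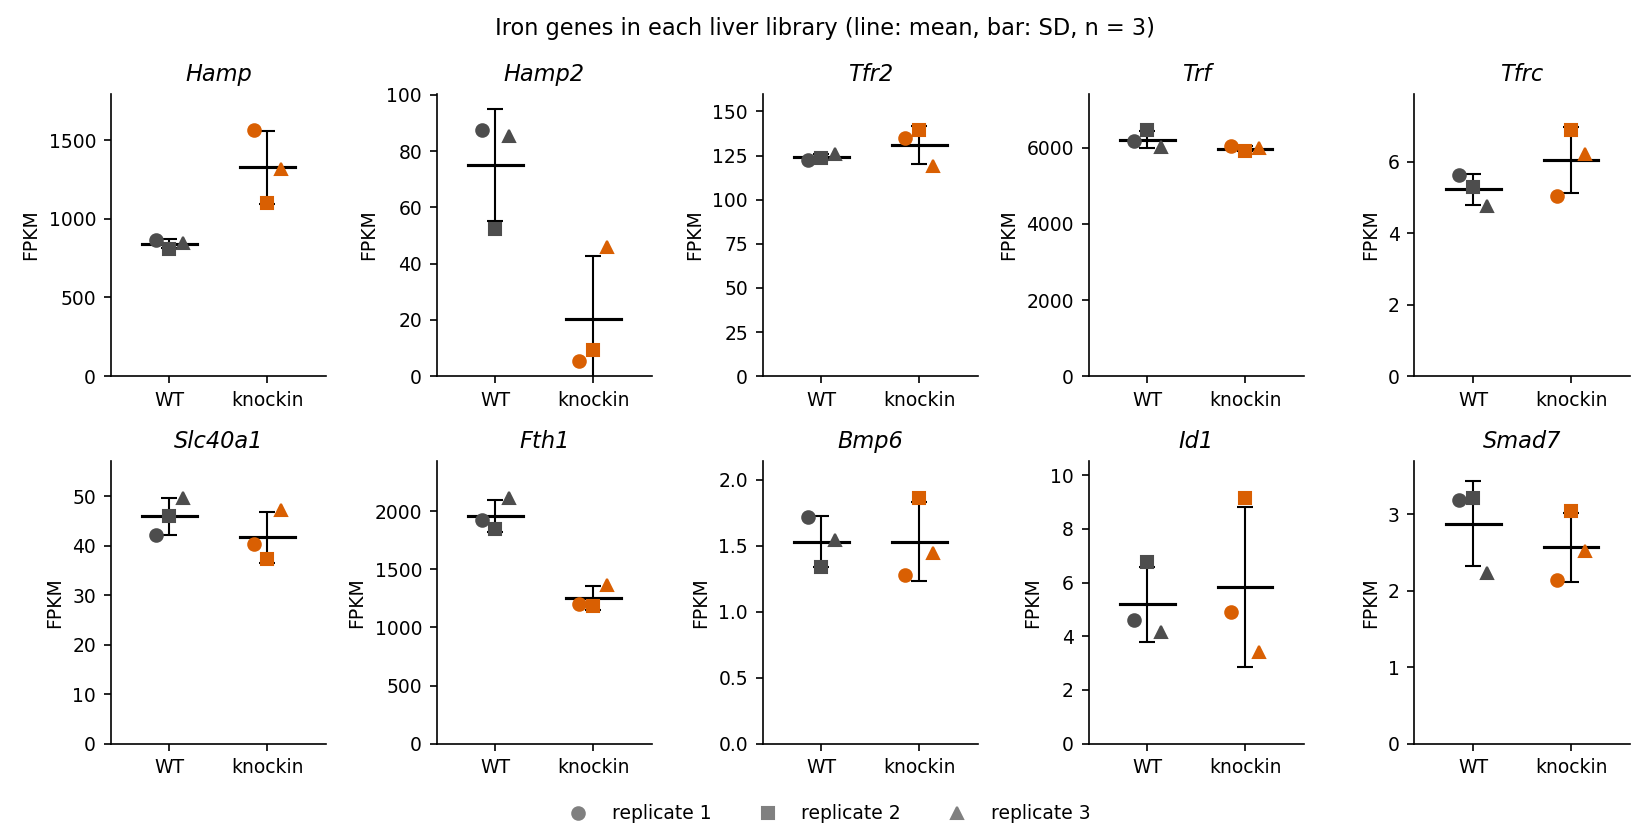
FPKM (y axis, from 0) of the 10 iron genes in each of 3 WT (grey) and 3 TRIM24 C52/55A knockin (orange) livers, with the mean as a line, the SD as a bar (n = 3, drawn down to 0 for *Hamp2*) and the replicate number as the symbol. The groups were separate for *Hamp*, higher in the knockin, and for *Hamp2* and *Fth1*, lower in the knockin, and they overlapped for the other 7 genes.

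*Hamp*, the main hepcidin gene, rose in the TRIM24 C52/55A liver. WT replicates 1 to 3 measured 867, 810.2 and 847 FPKM, and knockin replicates 1 to 3 measured 1562, 1102 and 1316 FPKM, and values of other genes are given in the same order. Each knockin library was above each WT library, and the knockin libraries were further apart from one another (mean 841 ± 28.8 FPKM in WT and 1327 ± 230.1 FPKM in the knockin, SD, n = 3 each). The mean was 1.58 times that of WT, and the log2 fold change of FPKM + 1 was 0.64 (SE 0.12, 95% interval 0.36 to 0.93, adjusted p = 0.0210, limma with Benjamini-Hochberg adjustment over all 12225 genes). Leaving out 1 library kept it between 0.52 and 0.77, but the adjusted p (limma) rose to 0.0659, 0.0695 and 0.0714 without WT replicate 1, 2 or 3 and to 0.0595 without TRIM24 C52/55A replicate 1. The exact permutation test of 3 against 3, whose smallest two-sided p is 0.1, gave that p. In bulk tissue, fewer cells of a type and less RNA per cell cannot be told apart, which holds for each gene here.

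*Hamp2*, the second hepcidin gene of the mouse, lay on the other side of WT. It had 87.3, 52.2 and 85.5 FPKM in WT and 5.49, 9.15 and 45.9 FPKM in the knockin. Replicates 1 and 2 of the knockin were far below WT, and replicate 3 was just under the lowest WT library. Means were 75.0 ± 19.8 and 20.2 ± 22.4 FPKM (SD, n = 3 each), a 3.72-fold lower mean in the knockin. Its log2 fold change of -2.35 (SE 0.63, 95% interval -3.79 to -0.90) did not pass the threshold (adjusted p = 0.0611, limma). Without TRIM24 C52/55A replicate 3 it was -3.19 and passed (adjusted p = 0.00102, limma), so that the call changed with this 1 library.

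Because *Hamp* was far more abundant, the sum of both hepcidin genes followed it, with 955, 862 and 932 FPKM in WT and 1567, 1111 and 1362 FPKM in the knockin. Its mean was 1.47 times that of WT, and no library of one group lay within the other (exact permutation test, two-sided p = 0.1). The share of *Hamp2* in this sum was 9.15%, 6.05% and 9.17% in WT and 0.351%, 0.823% and 3.37% in the knockin. How reads shared by the pair were split bears on this share more than on the sum. *Usf2*, the gene next to *Hamp*, had overlapping groups, with 29.4, 28.1 and 30.5 FPKM in WT and 24.2, 29.1 and 21.3 FPKM in the knockin (adjusted p = 0.249, limma).

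*Fth1*, the heavy chain of ferritin that oxidises iron for storage, fell in the TRIM24 C52/55A liver. It had 1923, 1844 and 2116 FPKM in WT and 1204, 1186 and 1369.8 FPKM in the knockin, and the highest knockin library was well below the lowest WT library. The mean went from 1961 ± 139.5 to 1253 ± 102 FPKM (SD, n = 3 each), 0.639 times that of WT. The log2 fold change was -0.65 (SE 0.09, 95% interval -0.86 to -0.43, adjusted p = 0.00767, limma), and it passed the threshold in all 15 alternative settings (adjusted p between 0.00489 and 0.0449). The light chain *Ftl1*, which is not one of the 10 genes, fell with it. *Ftl1* had 3772, 3500.3 and 3995 FPKM in WT and 2376, 2171 and 2708 FPKM in the knockin, a log2 fold change of -0.64 (SE 0.11, adjusted p = 0.0127, limma). The call on *Ftl1* was lost without WT replicate 1 (adjusted p = 0.0544, limma), without TRIM24 C52/55A replicate 1 (adjusted p = 0.0597, limma) and with no filter on low values (adjusted p = 0.0669, limma). Light chain transcripts per heavy chain transcript were 1.92 in WT and 1.93 in the knockin (SD 0.0398 and 0.0834, exact permutation test, two-sided p = 0.8), and the sum of both chains was 5717 ± 383 FPKM in WT and 3671 ± 369 FPKM in the knockin (SD, n = 3 each). Ferritin genes have processed copies in the genome, among them *Ftl1-ps1* with 12.8 to 13.8 FPKM in WT and 7.67 to 11.7 FPKM in the knockin, and reads can be split between a gene and such copies.

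Of the transport genes, none passed the threshold. *Trf*, the plasma iron carrier secreted by hepatocytes, had 6179.5, 6458 and 6009.7 FPKM in WT and 6035, 5917 and 5982 FPKM in the knockin. The groups overlapped, and the log2 fold change of -0.06 had a 95% interval from -0.24 to 0.13 (adjusted p = 0.741, limma). This value moved with the scaling, to -0.40 with quantile normalization (adjusted p = 0.0526, limma) and 0.05 with median-of-ratios scaling (adjusted p = 0.812, limma). *Tfrc*, the receptor that takes up transferrin into most cells, had 5.63, 5.29 and 4.78 FPKM in WT and 5.06, 6.88 and 6.22 FPKM in the knockin. Here replicate 1 of the knockin lay among the WT libraries, with a log2 fold change of 0.17 (interval -0.10 to 0.45, adjusted p = 0.446, limma). *Tfr2*, the hepatocyte receptor that senses transferrin-bound iron and feeds into hepcidin control, had 122, 124 and 126 FPKM in WT and 135, 139 and 119 FPKM in the knockin. Knockin libraries fell on both sides of WT, with a log2 fold change of 0.08 (interval -0.11 to 0.26, adjusted p = 0.635, limma). *Slc40a1*, the exporter that hepcidin removes from the cell surface, had 42.1, 46.0 and 49.6 FPKM in WT and 40.4, 37.3 and 47.2 FPKM in the knockin. Its groups overlapped too, and the difference on the log2 scale was -0.14 (interval -0.38 to 0.10, adjusted p = 0.478, limma). These intervals are on the scale of log2(FPKM + 1) and do not show that the levels were equal.

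**Figure D2:**
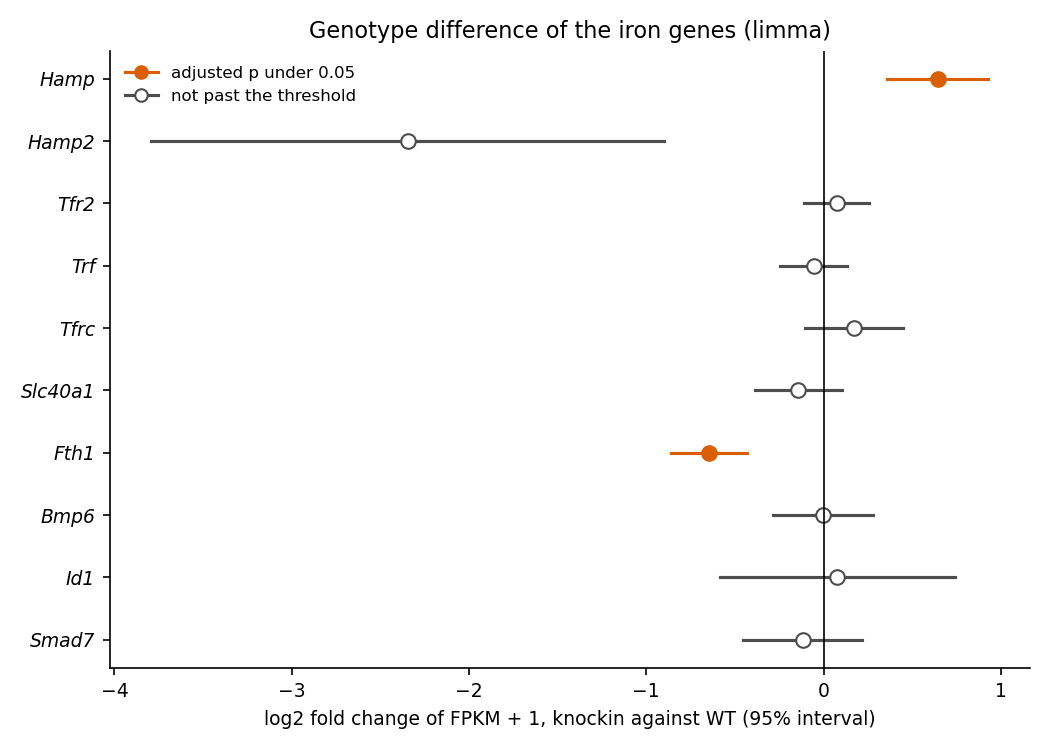
Log2 fold change of FPKM + 1 between TRIM24 C52/55A and WT livers (x axis) for the 10 iron genes, with the 95% interval from limma as a line, and orange for an adjusted p under 0.05. *Hamp* lay at 0.64 and *Fth1* at -0.65 with intervals clear of 0. *Hamp2* at -2.35 had the widest interval, also clear of 0, but did not pass the threshold (adjusted p = 0.0611, limma). The intervals of the other 7 genes included 0.

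Ferritin, *Tfrc* and *Slc40a1* mRNAs carry the iron-responsive element, which is shown because the first fell while the others did not pass the threshold. The hairpins are given as 30 bases of the mRNA strand with the loop CAGTGN in capitals, found by a search for that loop between 5 paired bases on each side (GENCODE M21, GRCm38).
Fth1, 5′ UTR, chr19:9982732-9982761, plus strand: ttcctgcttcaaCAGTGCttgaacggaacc
Ftl1, 5′ UTR, chr7:45459778-45459807, minus strand: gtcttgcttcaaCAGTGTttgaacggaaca
Slc40a1, 5′ UTR, chr1:45925464-45925493, minus strand: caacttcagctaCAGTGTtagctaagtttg
Tfrc, 3′ UTR, chr16:32631219-32631248, plus strand: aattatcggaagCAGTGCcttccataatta
Tfrc, 3′ UTR, chr16:32631598-32631627, plus strand: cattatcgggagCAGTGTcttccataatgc
Tfrc, 3′ UTR, chr16:32631663-32631692, plus strand: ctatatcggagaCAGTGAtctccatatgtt
Tfrc, 3′ UTR, chr16:32631710-32631739, plus strand: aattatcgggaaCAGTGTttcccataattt
The elements of *Fth1*, *Ftl1* and *Slc40a1* lie in exon 1 of their genes, and the 4 of *Tfrc* lie in exon 19, its last. The same letters were found in 222 of 21901 protein-coding genes (1.01%), so they are a search result and not a list of working elements. *Tfrc* and *Fth1* carry the element at opposite ends, and the ratio of *Tfrc* to *Fth1*, in FPKM and multiplied by 1000, was 2.93, 2.87 and 2.26 in WT and 4.20, 5.81 and 4.54 in the knockin. All knockin ratios were above all WT ratios (exact permutation test, two-sided p = 0.1). *Fth1* alone was already separate and *Tfrc* itself overlapped, so the ratio mainly restates *Fth1* and does not measure the element.

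The ligand and the target genes of BMP signalling overlapped between the genotypes. *Bmp6* had 1.72, 1.33 and 1.54 FPKM in WT and 1.28, 1.86 and 1.45 FPKM in the knockin, which is close to no difference in the means (log2 fold change -0.005, interval -0.29 to 0.28, adjusted p = 0.986, limma). *Id1*, a direct target of the SMAD proteins, had 4.60, 6.79 and 4.17 FPKM in WT and 4.91, 9.16 and 3.42 FPKM in the knockin. Replicate 2 was the highest library in both groups and the other libraries lay between 3.42 and 4.91 FPKM, so that the interval was wide (log2 fold change 0.08, -0.58 to 0.74, adjusted p = 0.906, limma). *Smad7*, an inhibitor that SMAD signalling induces against itself, had 3.18, 3.21 and 2.23 FPKM in WT and 2.13, 3.04 and 2.51 FPKM in the knockin (log2 fold change -0.12, interval -0.45 to 0.22, adjusted p = 0.684, limma). *Hamp* per *Id1* overlapped between the groups, with a mean ratio of 170.2 in WT and 274 in the knockin (exact permutation test, two-sided p = 0.3). *Hamp* per *Slc40a1* did not overlap, with a mean of 18.4 in WT and 32.0 in the knockin (exact permutation test, two-sided p = 0.1). *Hamp* alone was already separate and *Slc40a1* overlapped, so this ratio mainly restates *Hamp*.

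Counted together, 2 of the 10 genes passed the threshold, 1 higher (*Hamp*) and 1 lower (*Fth1*), against 7.72% of all genes tested, 1.64% higher and 6.09% lower. The groups did not overlap for 3 of the 10, against 28.9% of all genes, which is close to the background. The median log2 fold change of the 10 was -0.03 and that of all genes tested was -0.075. Nothing particular to the 10 genes as a group can be read from such counts, and the differences described are those of single genes.

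Another 119 genes of iron and heme handling were listed in 5 groups, of which 109 were tested. Of these, 9 passed the threshold, 3 higher and 6 lower (8.26%, against 7.72% of all genes), and their median log2 fold change was -0.09. Over all genes tested, 8003 of 12225 had a log2 fold change below 0, which is the background for the counts below 0 given by list.

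**Figure D3:**
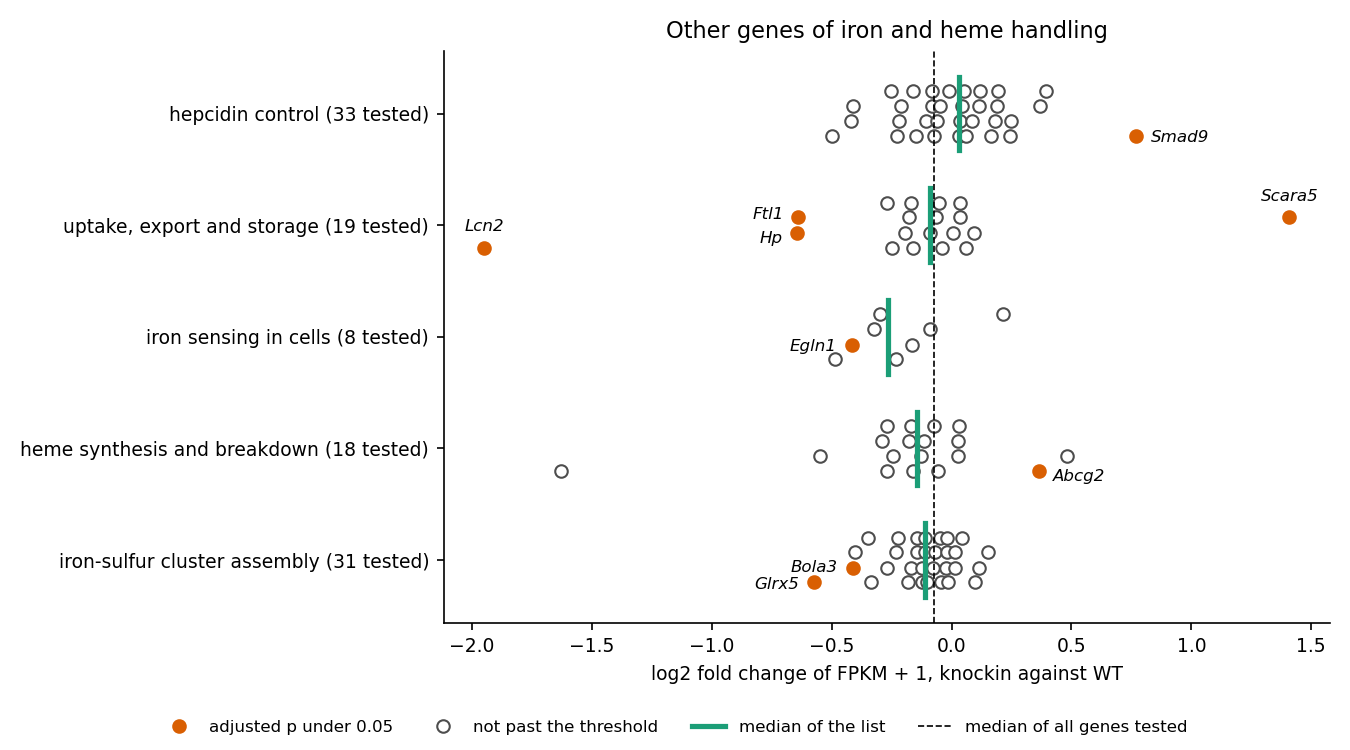
Log2 fold change of FPKM + 1 between TRIM24 C52/55A and WT livers (x axis) for each tested gene of 5 lists, with genes past the threshold filled in orange and named, the list's median as a green bar and the median of all 12225 genes (-0.075) as a dashed line; the height within a list only separates the points. Of the named genes, *Lcn2* lies furthest to the left at -1.95 and *Scara5* furthest to the right at 1.41, the latter with a WT mean of 0.327 FPKM, under the filter.

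Among 33 tested genes of hepcidin control, 1 was higher and none was lower (3.03% called, against 7.72% of all genes tested), with a median of 0.03. The one was *Smad9*, which encodes a SMAD protein of the BMP branch. It had 0.986, 1.01 and 0.825 FPKM in WT and 2.58, 2.45 and 1.93 FPKM in the knockin, so that the lowest knockin library stood well above the highest WT library. The log2 fold change was 0.77 (SE 0.12, adjusted p = 0.00887, limma), past the threshold in all 15 alternatives. The BMP co-receptor hemojuvelin (*Hfe2*) had 42.7, 38.7 and 37.3 FPKM in WT and 25.9, 29.2 and 33.8 FPKM in the knockin, without overlap but also without passing the threshold (log2 fold change -0.41, adjusted p = 0.0584, limma, and 0.0300 without TRIM24 C52/55A replicate 3). *Hfe*, which partners with the transferrin receptors in iron sensing, likewise did not pass (-0.21, adjusted p = 0.130, limma). *Tmprss6*, the protease that cleaves hemojuvelin and so restrains hepcidin, had a log2 fold change of -0.05 and an adjusted p of 0.762 (limma). The ligand *Bmp2* was at -0.06, and of further BMP target genes *Smad6* was at -0.23, *Id2* at 0.39, *Id3* at 0.37 and *Atoh8* at 0.19, with adjusted p between 0.253 and 0.812 (limma). Leaving out 1 library moved *Atoh8* between -0.06 and 0.53, *Id2* between 0.19 and 0.58, *Id3* between 0.19 and 0.53 and *Smad6* between -0.32 and -0.16. On the inflammatory side, *Stat3* was at -0.08 and its target *Socs3* at 0.25, and the hepatocyte factor *Creb3l3* was at 0.04, with adjusted p between 0.504 and 0.846 (limma).

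Among 19 tested genes of uptake, export and storage, 1 was higher and 3 were lower, against 1.64% and 6.09% of all genes tested. *Scara5*, a receptor for ferritin, rose from 0.515, 0.361 and 0.105 FPKM in WT to 4.02, 2.42 and 1.49 FPKM in the knockin (log2 fold change 1.41, SE 0.24, adjusted p = 0.0142, limma, and 0.0624 without WT replicate 3). Its WT mean of 0.327 FPKM was under the filter of 0.5 FPKM, so it was tested through its knockin level, and with no filter the adjusted p was 0.0647 (limma). The lower genes were *Ftl1*, described with *Fth1*, and *Hp* and *Lcn2*, which are also acute phase genes. *Hp*, haptoglobin, which binds free haemoglobin, fell from 1725, 1833 and 2075 FPKM to 1268, 1284 and 1055 FPKM (log2 fold change -0.64, SE 0.11, adjusted p = 0.0136, limma, and 0.0621 with no filter on low values). *Lcn2*, which captures bacterial iron carriers, fell from 11.6, 7.68 and 16.7 FPKM to 1.65, 2.36 and 2.77 FPKM (log2 fold change -1.95, SE 0.25, adjusted p = 0.00480, limma). Hemopexin, *Hpx*, which binds free heme, was at -0.25, the importers *Slc39a14* and *Slc11a2* at -0.04 and 0.09, the ferrireductase *Steap3* at 0.04 and the ferroxidase ceruloplasmin (*Cp*) at 0.06, none past the threshold (adjusted p between 0.129 and 0.918, limma).

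Of 8 genes that sense iron or oxygen in cells, 1 was lower, against 6.09% of all genes, and 7 of the 8 had a log2 fold change below 0, against 8003 of 12225 genes, with a median of -0.27. It was *Egln1*, an iron-dependent prolyl hydroxylase that marks HIF for decay (10.01 ± 1.07 FPKM in WT and 7.22 ± 0.182 FPKM in the knockin, SD, n = 3 each, adjusted p = 0.0376, limma), a call kept in 6 of 15 alternatives and lost without any one library except TRIM24 C52/55A replicate 2 (adjusted p between 0.0659 and 0.145, limma). The iron regulatory proteins themselves did not pass, with -0.16 for *Aco1* (adjusted p = 0.250, limma) and 0.21 for *Ireb2* (adjusted p = 0.348, limma, and 0.0464 without TRIM24 C52/55A replicate 2).

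Of 18 genes of heme synthesis and breakdown, 1 was higher and none was lower (5.56% called, against 7.72% of all genes tested). It was the porphyrin exporter *Abcg2* (46.6 ± 1.32 FPKM in WT and 60.4 ± 5.61 FPKM in the knockin, SD, n = 3 each, adjusted p = 0.0394, limma), kept in 6 of 15 alternatives and likewise lost without any one library except TRIM24 C52/55A replicate 2 (adjusted p between 0.0655 and 0.143, limma). *Alas1*, the rate-limiting enzyme of heme synthesis in liver, varied widely between mice, with 168, 174 and 277 FPKM in WT and 63.6, 22.3 and 185 FPKM in the knockin. Replicate 3 of the knockin lay among the WT libraries, and the log2 fold change of -1.63 (adjusted p = 0.162, limma) was -2.38 without it (adjusted p = 0.0153, limma). *Alas2*, the erythroid form of that enzyme, had 52.8, 57.0 and 53.9 FPKM in WT and 85.7, 60.4 and 86.7 FPKM in the knockin (log2 fold change 0.48, adjusted p = 0.0718, limma, and 0.00470 without TRIM24 C52/55A replicate 2). *Hmox1*, which breaks down heme and releases its iron, had 23.0, 29.3 and 21.6 FPKM in WT and 13.8, 19.6 and 16.3 FPKM in the knockin (log2 fold change -0.55, adjusted p = 0.0662, limma, and 0.0322 without TRIM24 C52/55A replicate 2).

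Among 31 genes of iron-sulfur cluster assembly, none was higher and 2 were lower (6.45% called, against 7.72% of all genes tested). *Glrx5*, which hands new clusters on in mitochondria, fell from 77.4, 70.9 and 76.7 FPKM to 43.8, 51.4 and 55.5 FPKM (log2 fold change -0.58, SE 0.10, adjusted p = 0.0142, limma). That call was lost without WT replicate 1 or 3 (adjusted p = 0.0624 and 0.0632, limma). *Bola3*, a partner of such glutaredoxins, fell from 22.4 ± 0.788 to 16.6 ± 1.52 FPKM (SD, n = 3 each, adjusted p = 0.0294, limma), a call kept in 7 of 15 alternatives and lost without WT replicate 1, 2 or 3 or TRIM24 C52/55A replicate 1 (adjusted p between 0.0947 and 0.105, limma). Of the 31 genes, 25 had a log2 fold change below 0, against 8003 of 12225 genes, with a median of -0.11, beside the median of -0.075 over all genes.

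Hepcidin is itself induced in inflammation, so the acute phase genes are given beside *Hamp*. Of 8 listed, 4 were lower in the knockin, namely *Saa1*, *Saa2*, *Orm2* and *Lcn2*, and none was higher, against 6.09% and 1.64% of all genes tested. *Saa1* fell from 62.9, 75.0 and 90.0 FPKM to 17.7, 25.3 and 20.2 FPKM (log2 fold change -1.80, adjusted p = 0.00104, limma), while *Orm1*, *Fgb*, *Crp* and *Saa3* did not pass the threshold. Knockin libraries of *Crp* (means 267 FPKM in WT and 232 FPKM in the knockin) and *Saa3* (7.27 and 3.90 FPKM) all lay below WT. Groups were likewise separate, in either direction, for 28.9% of all genes. The summed level of the 8 was 1568 to 1888 FPKM in WT and 1587 to 1813 FPKM in the knockin. In this sum a higher mean of *Fgb* (867 FPKM in WT and 1069 FPKM in the knockin) stood against lower means of the other 7 genes. Among these was *Orm1* (430 FPKM in WT and 373 FPKM in the knockin). *Il6* was listed at 0 to 0.292 FPKM and was not tested.

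**Figure D4:**
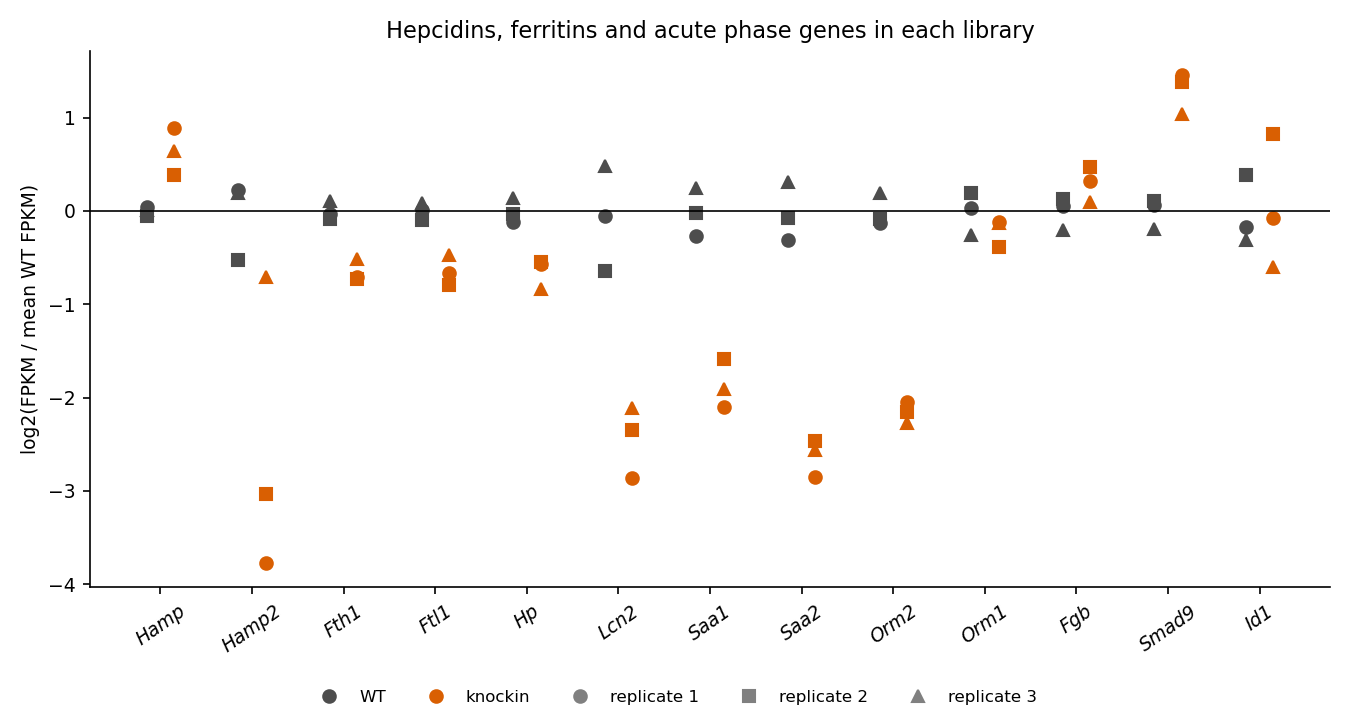
Log2 of FPKM over the mean of the WT libraries (y axis) for hepcidin, ferritin, acute phase and BMP genes in 3 WT (grey) and 3 TRIM24 C52/55A knockin (orange) livers, with the replicate number as the symbol. Knockin points lie above WT for *Hamp* and *Smad9*, below WT for *Hamp2*, *Fth1*, *Ftl1*, *Hp*, *Lcn2*, *Saa1*, *Saa2* and *Orm2*, and the groups overlap for *Orm1*, *Fgb* and *Id1*.

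The libraries were checked as liver by *Ttr*, *Apoa1* and *Ahsg*, which summed to 14391 to 14927 FPKM in WT and 14574 to 16939.6 FPKM in the knockin, and *Alb* was not analysed here. Of 12 Kupffer cell and macrophage markers, cells that recycle iron from red cells, 0 passed the threshold by limma (against 7.72% of all genes), 2 had an unadjusted p under 0.05 (against 2883 of 12225 genes), all 12 had a log2 fold change below 0 (median -0.28), and their sum was 275 to 343 FPKM in WT and 225 to 324 FPKM in the knockin. Of 12 markers of sinusoidal endothelium, the source of *Bmp6*, 1 was lower (*Lyve1*, adjusted p = 0.0281, limma, a call kept in 9 of 15 alternatives), or 8.33% against 7.72% of all genes. Their sum was 183 to 192 FPKM in WT and 171 to 177 FPKM in the knockin, without overlap. *Lyve1* (mean 6.22 FPKM in WT and 2.07 FPKM in the knockin) was the only 1 of the 12 with separate groups and is part of this sum. The sum without *Lyve1* was not tested. Erythroid genes, mostly globin, summed to 1799.8, 673 and 939.5 FPKM in WT and 631, 522 and 729.6 FPKM in the knockin. The 4 globins had log2 fold changes of -0.90 (*Hba-a1*) to -0.70 (*Hbb-bt*), none past the threshold (adjusted p between 0.138 and 0.264, limma), while *Alas2* was at 0.48. The adipocyte markers *Adipoq*, *Plin1*, *Lep* and *Retn* reached 1.59 to 4.55 FPKM in replicate 2 of the knockin and 0 to 0.127 FPKM elsewhere, while *Cidea* and *Cfd* were seen in every library with lower knockin means. *Cfd* had 4.17, 8.62 and 3.10 FPKM in WT and 0.112, 2.54 and 0.821 FPKM in the knockin, without overlap (log2 fold change -1.61, adjusted p = 0.0617, limma). *Cidea* had means of 1.90 and 0.400 FPKM (log2 fold change -0.99, adjusted p = 0.120, limma). Without replicate 2 of the knockin the log2 fold change was 0.77 for *Hamp*, -2.08 for *Hamp2* and -0.61 for *Fth1*. The part of these cell types in the results was not tested. *Trim24* had 4.85 to 5.96 FPKM in WT and 4.31 to 8.46 FPKM in the knockin, but a knockin of codons leaves the transcript in place, so its level does not check the labels. Relative depth, read from the steps between low values, was 0.966 to 1.04 times that of WT replicate 1.

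The genes with the pattern most like that of *Hamp*, by the root mean square difference of centred log2(FPKM + 1) over the 6 libraries, were *Nat8f5* (0.055), *Sdr9c7* (0.069) and *Plk2* (0.097), against an SD of *Hamp* itself of 0.354. *Sdr9c7* had 39.9, 40.2 and 35.7 FPKM in WT and 72.1, 50.1 and 63.2 FPKM in the knockin. For *Tfrc* they were *Mrpl47* (0.040), *Rab40c* (0.041) and *Myo9b* (0.043), and for *Id1* they were *Tnfaip2* (0.115), *Btg3* (0.148) and *Atg16l2* (0.149), which were also highest in replicate 2 of each genotype. With 6 libraries and 12225 genes, such likeness is a description only.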

How the data were processed

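Total RNA of 6 livers was sequenced with Illumina libraries. The deposited values are FPKM, 1 table for each mouse, which the authors had already scaled to transcript length and mapped fragments. The submitters' processing notes name bcl2fastq, Salmon 0.14.0, DESeq2 1.30.0 and GRCm38 without their roles, and annotation and strand are not given in the sources used here. FPKM keep no read total, so no counting interval was computed.

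Groups came from the labels. Genes averaging 0.5 FPKM or more over the libraries (12225) were compared on the log2 scale after adding 1, with limma 3.58.1 (lmFit, eBayes with a mean-variance trend) in R 4.3.3 and Benjamini-Hochberg adjustment over all of them, threshold 0.05. Genes unlisted in a library were taken as 0. The fit was tested on simulated data. Single quantities had an exact two-sided permutation test. The paper's methods name no test for these data, so the choice followed the unit.

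The genes and lists were chosen with earlier results of these data known. Named were the 10 genes, 24 chosen genes of the other lists, each list gene past the threshold, and the 3 genes most like *Hamp*, *Tfrc* and *Id1*. *Usf2*, *Ftl1-ps1*, *Trim24*, *Il6* and the cell type and acute phase markers were named beside these after their values were seen. Promoters came from RefSeq (GRCm38.p6) and transcripts from GENCODE M21. Other steps ran in Python 3.11.15 with scipy 1.17.1, numpy 2.4.6, pandas 2.3.3, Biopython 1.88 and matplotlib 3.10.9. The alternatives changed the pseudocount (0.1), the filter (none, or 1 FPKM), the scaling (TPM, median of ratios, quantiles), the variance model, the block by replicate number, or left out 1 library.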

Additional observations from a re-analysis of the deposited data

How the results depend on the processing

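Over 15 alternatives, no call on the 10 genes or on a gene named from the 5 other lists reversed. *Trf*, *Tfrc*, *Tfr2*, *Slc40a1*, *Bmp6*, *Id1* and *Smad7* passed the threshold in none, and *Fth1* passed in all. The count over all genes, 944, was 347 with no filter on low values, 1555 with TPM (FPKM rescaled to a fixed total) and 578 with the replicate block, and 294 (without TRIM24 C52/55A replicate 1) to 1280 (without TRIM24 C52/55A replicate 2) with 1 library left out. Of the 10 genes, 1 passed with no filter and 1 to 3 with 1 library left out. Of the other lists, 9 genes passed, against 3 with no filter, 20 with TPM and 4 to 19 with 1 library left out. *Hamp* kept its log2 fold change of 0.64 with no filter (adjusted p = 0.0736, limma), where 21528 genes entered both the fit and the adjustment. It lay between 0.52 and 0.77 with 1 library left out. *Hamp2* passed with TPM (-2.45, adjusted p = 0.0430, limma) and with the replicate block (-2.35, adjusted p = 0.0469, limma), and lay between -3.19 and -1.76 with 1 library left out. Higher and lower genes numbered 200 and 744 as reported, 250 and 406 with median-of-ratios scaling, 255 and 378 with quantile normalization and 197 and 1358 with TPM, and the median log2 fold change of all genes was -0.075, 0.007, 0.010 and -0.135. The FPKM of a library summed to 644619.4 to 648220.5 in WT and 673243.9 to 676791.0 in the knockin. TPM sets these sums equal, which lowers knockin values against WT. The cause of the other moves was not tested. Same-numbered mice did not deviate together (correlations -0.123, -0.099 and 0.003), so the numbers give no pairing. FPKM give no read totals, so what depth limits is not known.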
